A study of Mus musculus with 6 samples.

Results

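Keratins 7, 8, 18, 19, 20 and 23 are the keratins of simple epithelia and of Merkel cells, and their 6 genes (Krt7, Krt8, Krt18, Krt19, Krt20 and Krt23) were taken by symbol from the 24453 gene symbols counted in each library. All 6 had a row, and 5 had enough counts for a test. Of these, Krt7 rose in Eed cKO epidermis, from 3.15 to 100.1 CPM (counts scaled to a common library size), and the other tested members did not pass. Krt20 had too few counts to be tested.

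RNA came from newborn (postnatal day 0) mouse back skin, from interfollicular epidermal cells sorted as EpCAM-positive, Sca1-positive and high in α6-integrin. The genotype is given as Control for 3 libraries and as Eed-/- for the 3 others, which are titled Eed cKO (conditional knockout). Eed is a core subunit of Polycomb repressive complex 2, which methylates histone H3 on lysine 27 and keeps many developmental genes silent. The promoter that drives the deletion, the deleted exons, the alleles of the controls and the number of animals behind a library are not given in the sources read for this work. The p-values therefore measure the spread between libraries, which may be technical.

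Keratins build intermediate filaments from obligate pairs of an acidic type I and a basic type II chain. Keratin 8 (type II) with keratin 18 (type I) is the pair of simple, single-layered epithelia, where keratin 7 (type II) and keratin 19 (type I) are added in ducts. Interfollicular epidermis is built on Krt5 and Krt14 instead, and within it keratins 8, 18 and 20 mark Merkel cells, the touch receptor cells of skin. The type II genes lie in a cluster on mouse chromosome 15, with Krt18 as the only type I gene beside them, and the other type I genes lie on chromosome 11.

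Total counts ran from 20998149 to 29998531 per library, so that 1 count was worth 0.032 to 0.0484 CPM and 3 counts 0.0959 to 0.145 CPM. Of the defining markers of the labelled cell type, Krt5 was at 22623 ± 3399 CPM in control and 22537 ± 3674 CPM in Eed cKO (SD, n = 3 libraries each here and below). Of the 8 basal epidermis markers, 1 rose (Epcam), 0 fell by edgeR (2 at an unadjusted p under 0.05, 0 by DESeq2 and 0 by limma-voom) and 7 did not pass. Eed itself was at 45.1, 41.1 and 53.1 CPM in controls 1 to 3, against 37.0, 33.7 and 29.2 CPM in Eed cKO libraries 1 to 3. That is a log2 fold change of -0.48 ± 0.19 (SE), which did not pass (edgeR adjusted p 0.252), and a count over the whole gene checks an exon deletion little.

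The promoters of 3 members are shown first, since Krt7 is the member that rose and Krt8 and Krt18 are the partner pair. Each is the stretch from 250 bases before to 50 bases after the start that RefSeq annotates on GRCm38.p6, read 5′ to 3′ on the gene's strand, with every CpG dinucleotide in capitals. Krt7 is at chr15:101412153-101412452 on the plus strand, Krt8 at chr15:102004293-102004592 on the minus strand and Krt18 at chr15:102027966-102028265 on the plus strand.
Krt7: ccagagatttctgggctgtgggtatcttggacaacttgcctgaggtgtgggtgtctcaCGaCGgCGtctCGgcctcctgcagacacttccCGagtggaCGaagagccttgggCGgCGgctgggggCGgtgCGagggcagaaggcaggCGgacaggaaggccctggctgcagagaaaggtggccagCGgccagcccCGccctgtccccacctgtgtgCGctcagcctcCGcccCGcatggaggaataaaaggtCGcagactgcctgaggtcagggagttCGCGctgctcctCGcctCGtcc
Krt8: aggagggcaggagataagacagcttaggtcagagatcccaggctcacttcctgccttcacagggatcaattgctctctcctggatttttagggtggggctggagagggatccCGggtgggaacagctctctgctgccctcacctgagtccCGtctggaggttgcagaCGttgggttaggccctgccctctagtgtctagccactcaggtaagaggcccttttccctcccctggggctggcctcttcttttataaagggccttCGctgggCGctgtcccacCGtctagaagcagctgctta
Krt18: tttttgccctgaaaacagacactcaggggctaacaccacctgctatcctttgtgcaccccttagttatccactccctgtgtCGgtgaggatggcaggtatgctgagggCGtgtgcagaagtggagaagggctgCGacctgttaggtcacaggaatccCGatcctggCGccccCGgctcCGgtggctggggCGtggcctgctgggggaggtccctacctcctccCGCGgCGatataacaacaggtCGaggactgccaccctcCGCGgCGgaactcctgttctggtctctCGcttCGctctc
Krt7 has 21 CpG and Krt18 has 17 in the 300 bases, whereas Krt8, Krt20 and Krt23 have 6 each. Over all 32851 RefSeq promoters of this length the median is 7 CpG, and 75.2% hold fewer than Krt7, 68.6% fewer than Krt18 and 43.6% fewer than 6. The TATA motif TATAAA was searched on both strands and occurs in 13.6% of all these promoters. It begins 29 bases before the annotated start of Krt20. In Krt8 it begins 1 base before the start and overlaps its own reverse complement, while the windows of Krt7, Krt18 and Krt23 hold no match. Krt19 was named only, without a promoter. These are descriptions of sequence, and no chromatin mark was measured.

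Krt7, the type II keratin of ducts and other glandular linings (chromosome 15, 101411043 to 101430313, GRCm38, plus strand, 9 exons), was the one member far above the counting limit. Its level was 1.91, 5.30 and 2.23 CPM in control libraries 1, 2 and 3, and 113, 112 and 75.4 CPM in Eed cKO libraries 1, 2 and 3. Every Eed cKO library was above every control library, and control 2 was the highest control. The means of 3.15 ± 1.88 and 100.1 ± 21.4 CPM differ 31.8-fold, a log2 fold change of 4.98 with an SE of 0.36 and an edgeR adjusted p of 1.78e-06. With each library left out in turn Krt7 stayed called, at 4.71 to 5.61 on the log2 scale, the highest value being that without control 2. Among all 14700 genes tested Krt7 ranked 15th by p-value. Among the 499 genes called higher it ranked 35th by the gain in CPM, 86th by log2 fold change and 64th by its level in Eed cKO. Reads of the ribosomal RNA gene Rn45s made up 2.18 to 5.24% of control and 6.78 to 7.26% of Eed cKO libraries, and with Rn45s left out the log2 fold change of Krt7 was 4.98. An antisense transcript, Gm671, shares 77 exonic bases with Krt7, and whether the counting used strand is not stated, so their reads cannot be told apart there.

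Of the 5 members tested, edgeR called 1 higher and 0 lower (at an unadjusted p under 0.05, 2 and 0; by DESeq2, 2 and 0; by limma-voom, 1 and 0), against 3.39% of all genes tested called higher, 0.816% called lower and 4.21% in either direction. All 5 tested members had a positive log2 fold change, with a median of 1.23 against -0.01 over all genes tested. That median is the value of Krt8, which did not pass, and Krt19 was at 0.01 ± 1.25 (SE). In 2 of the 5 tested members, Krt7 and Krt18, every Eed cKO library lay above every control, which was so for 11% of all genes tested. Krt8 and Krt18 had at most 5 counts in controls 1 and 3 and entered the test through their Eed cKO counts. The number of positive values, the median and the place of Krt18 among the 2 were thus partly fixed by the need for enough counts. Bulk RNA cannot tell more cells of a type from more RNA per cell, and this holds for each value given here.

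**Figure D1:**
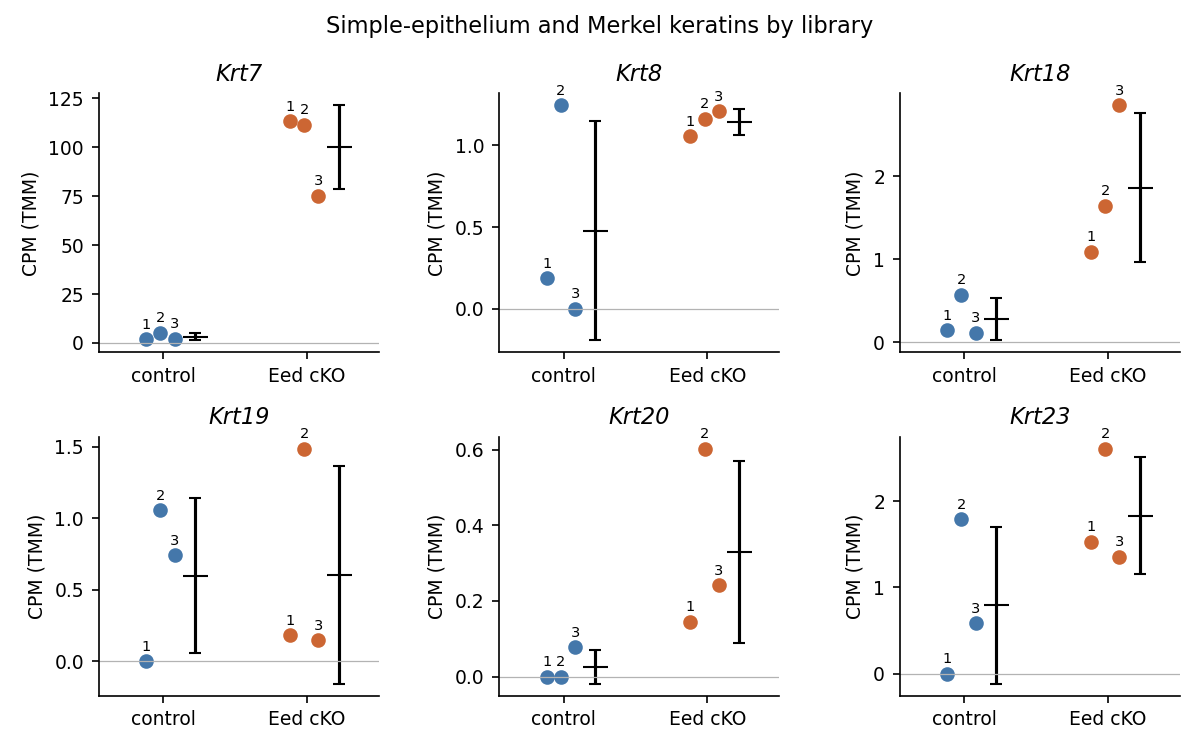
Level of each member in TMM-normalised CPM (linear axis, 1 panel per gene with its own scale) in the 3 control (blue) and 3 Eed cKO (orange) libraries, numbered by replicate, with the mean and SD as black marks. Krt7 reaches 75.4 to 113 CPM in Eed cKO, while the other 5 members stay under 3 CPM in every library and control 2 is the highest control for Krt7, Krt8, Krt18, Krt19 and Krt23.

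Krt18, the type I partner of keratin 8 (chromosome 15, 102028180 to 102032027, 7 exons), had 4, 18 and 3 counts in control libraries 1, 2 and 3, or 0.150, 0.575 and 0.117 CPM. In Eed cKO libraries 1, 2 and 3 it had 30, 41 and 59 counts, or 1.09, 1.65 and 2.86 CPM. The groups do not overlap, and the means were 0.281 ± 0.256 and 1.86 ± 0.902 CPM. The log2 fold change of 2.69 ± 0.91 (SE) did not pass (edgeR adjusted p 0.138, unadjusted p 0.0104). DESeq2 called it (log2 fold change 2.72, DESeq2 adjusted p 0.0387), and without control 2 edgeR gave 3.77 (adjusted p 0.0938).

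Krt8 (chromosome 15, 101996698 to 102004482, 9 exons) had 5, 39 and 0 counts in controls 1 to 3, or 0.187, 1.25 and 0 CPM, and 29, 29 and 25 counts in Eed cKO, or 1.06, 1.16 and 1.21 CPM. The Eed cKO libraries were close together, and control 2 was above all of them. The log2 fold change of 1.23 ± 1.12 (SE) did not pass (edgeR adjusted p 0.711) and was 3.55 without control 2 (edgeR adjusted p 0.241). A long non-coding transcript on the other strand, Gm36026, shares 101 exonic bases with Krt8.

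Within the pair, Krt8 made up 55.6% of the counts in control 1 (exact 95% binomial interval 21.2 to 86.3%) and 68.4% in control 2 (54.8 to 80.1%). In control 3 it made up 0 of 3 counts, which allows up to 70.8%. The share was 49.2% (35.9 to 62.5%), 41.4% (29.8 to 53.8%) and 29.8% (20.3 to 40.7%) in Eed cKO libraries 1, 2 and 3. The interval of control 3 spans the values of all 5 other libraries, and that of control 1 overlaps each Eed cKO interval. The interval of control 2 overlaps that of Eed cKO 1 and lies above those of Eed cKO 2 and 3. The log2 ratio of Krt8 to Krt18 averaged 0.72 over the 2 control libraries with both genes counted and -0.60 over Eed cKO. The exact two-sided permutation p was 0.2, where 0.1 is the smallest that 2 against 3 libraries allow. These intervals cover counting error only and assume independent reads. Reads of amplified RNA are not independent molecules, so the intervals may be too narrow.

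Krt20, the type I keratin of Merkel cells and of intestinal and urothelial lining (chromosome 11, 99428403 to 99438150, 8 exons), had 0, 0 and 2 counts in control and 4, 15 and 5 in Eed cKO. The groups do not overlap, but the counts are few, and pooled within each group they give a ratio of 13.7 (95% counting interval 3.41 to 120.0). That interval assumes independent reads and leaves out the spread between libraries. Without a filter on low counts edgeR gave a log2 fold change of 3.48 (adjusted p 0.458). Eed cKO 2 held 15 of the 24 Eed cKO reads. The pooled log2 ratio of 3.78 became 2.97 when that library was left out and 3.10 when control 2 was.

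Krt19, the smallest type I keratin, of ducts and of the hair follicle bulge (chromosome 11, 100140810 to 100148665, 6 exons), had 0, 33 and 19 counts in controls 1 to 3, against 5, 37 and 3 in Eed cKO. In CPM these were 0, 1.1 and 0.742 against 0.182, 1.49 and 0.145. Each group holds both low and high libraries, with control 2 and Eed cKO 2 the highest of their groups. The difference between the groups was 0.01 ± 1.25 (SE) on the log2 scale (edgeR adjusted p 0.998), and it was -1.84 without Eed cKO 2, -0.57 without control 1 and 0.71 without control 2.

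Krt23, a type I keratin of glandular and gastrointestinal epithelium (chromosome 11, 99477974 to 99493137, 8 exons), had 0, 56 and 15 counts in controls 1 to 3, against 42, 65 and 28 in Eed cKO. In CPM these were 0, 1.79 and 0.586 against 1.53, 2.61 and 1.36. Control 2 lies above the Eed cKO libraries 1 and 3, so the groups overlap. The log2 fold change of 1.20 ± 1.06 (SE) did not pass (edgeR adjusted p 0.697) and was 2.64 without control 2 (edgeR adjusted p 0.387).

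**Figure D2:**
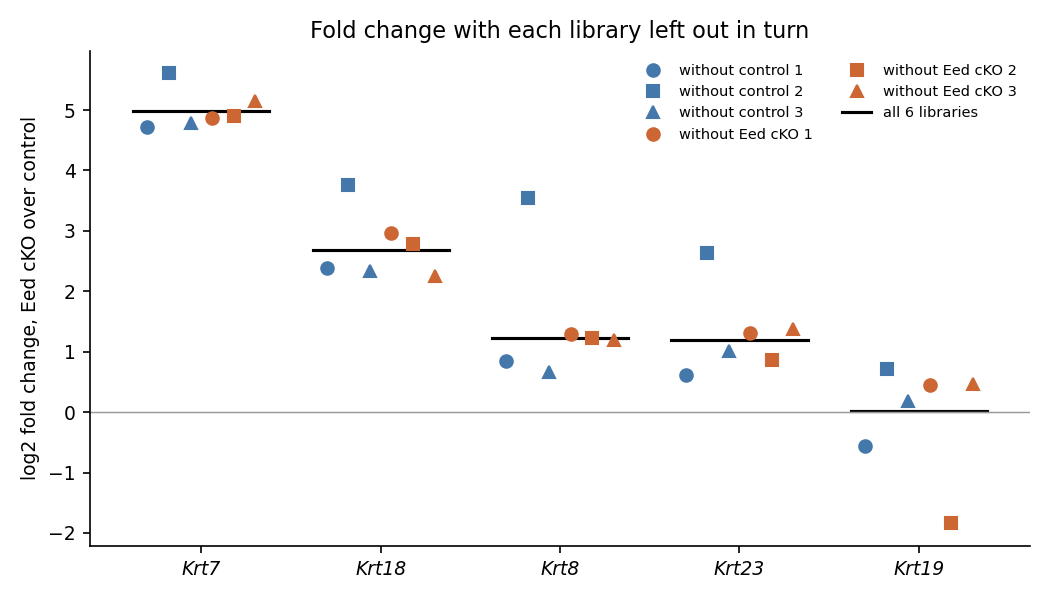
Log2 fold change of the 5 tested members (Eed cKO over control, edgeR), with all 6 libraries (black line) and with each library left out in turn (blue for a control, orange for an Eed cKO library left out). Leaving out control 2 raises all 5 values, to 5.61 for Krt7, 3.77 for Krt18, 3.55 for Krt8, 2.64 for Krt23 and 0.71 for Krt19, and only Krt19 changes sign, without control 1 or Eed cKO 2.

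To compare the members with each other, CPM was divided by the length of the longest protein-coding transcript of the GENCODE basic set (1437 bases for Krt18 to 4094 for Krt7). In control, Krt7 was at 0.768 ± 0.458 CPM per kb, Krt23 at 0.506 ± 0.583, Krt19 at 0.380 ± 0.344, Krt8 at 0.244 ± 0.343, Krt18 at 0.195 ± 0.178 and Krt20 at 0.0135 ± 0.0234 CPM per kb. Neighbours in that order from Krt7 to Krt18 do not differ beyond their spread. In Eed cKO, Krt7 stood apart at 24.4 ± 5.24 CPM per kb, followed by Krt18 at 1.30 ± 0.627, Krt23 at 1.17 ± 0.434, Krt8 at 0.584 ± 0.0402, Krt19 at 0.383 ± 0.484 and Krt20 at 0.171 ± 0.125 CPM per kb. There Krt18 and Krt23 do not differ beyond their spread, nor do Krt8 and Krt19, nor Krt19 and Krt20. If shorter Krt7 transcripts are the ones expressed, its level per kb is understated.

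The type II members outweighed the type I members in Eed cKO through Krt7 alone. Krt8, at 0.540 to 0.618 CPM per kb there, was below the type I sum in each Eed cKO library. Per kb, Krt7 and Krt8 summed to 28.2, 27.8 and 19 CPM in Eed cKO libraries 1, 2 and 3, and the 4 type I members to 1.93, 4.07 and 3.07 CPM. In control libraries 1, 2 and 3 the type II sums were 0.562, 1.93 and 0.544 CPM per kb and the type I sums 0.104, 2.21 and 0.967 CPM per kb. Krt7 made up 83.3 to 91.8% of the members' summed level per kb in Eed cKO and 31.3 to 70.0% in control. Against the main epidermal type II keratin, Krt7 per kb came to 0.220 to 0.252% of Krt5 in Eed cKO and to 0.00441 to 0.0150% in control.

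The rest of the keratin family gives the setting. Of 48 other keratin genes 29 were tested, of which 9 rose, 1 fell and 19 did not pass, with a median log2 fold change of 0.06. Among the 9, Krt2, Krt12 and Krt87 were low in control and entered the test through their Eed cKO counts. Their direction was therefore largely fixed beforehand. The wound keratins Krt6a, Krt6b and Krt16 rose and Krt17, at 467 ± 139 and 510.2 ± 75.6 CPM, did not pass (3 of 4 tested). Krt6a went from 6.53 ± 3.70 to 111.0 ± 12.9 CPM (edgeR adjusted p 1.22e-05 at a log2 fold change of 4.08), and reads may be split wrongly between it and its close copy Krt6b, which had 2.23 ± 1.07 and 18.6 ± 5.05 CPM. Krt16, their type I partner, had 30.3 ± 5.78 and 118 ± 21.3 CPM. Per kb Krt6a was at 42.3 to 52.8 CPM in the Eed cKO libraries, above Krt7 in each of them when Krt7 is divided by its longest transcript. In CPM not divided by length, Krt7 was above Krt6a in Eed cKO 1 (113 against 96.3 CPM) and below it in Eed cKO 2 and 3. Of the suprabasal keratins 3 of 6 rose (Krt2, Krt10 and Krt80). Krt10, the main type I keratin of the spinous layer, had 847 ± 96.0 and 2018 ± 441 CPM, and Krt2, of the upper spinous and granular layers, 0.162 ± 0.281 and 9.36 ± 6.61 CPM. Of the basal keratins, 0 of 3 passed by edgeR, DESeq2 or limma-voom, or at an unadjusted edgeR p under 0.05, with a median log2 fold change of -0.15.

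Krt79, a keratin of the upper follicle duct and sebaceous gland opening, rose from 7.55 ± 1.74 to 55.7 ± 5.47 CPM (edgeR adjusted p 5.74e-06 at a log2 fold change of 2.88), whereas Krt71 of the inner root sheath fell from 7.93 ± 5.02 to 1.54 ± 0.974 CPM (edgeR adjusted p 0.0495). The other 6 tested follicle sheath keratins did not pass. The corneal keratin Krt12 rose from 0.360 ± 0.316 to 4.2 ± 0.70 CPM (edgeR adjusted p 0.0142), the only one of 6 tested keratins of other sites, and the hair keratin Krt87 rose from 0.0444 ± 0.0483 to 1.78 ± 1.26 CPM (edgeR adjusted p 0.0202), 1 of 2 tested hair shaft keratins. Krt87 has close copies among the hair keratins, so its reads are less certain. The calls of Krt71, Krt80 and Krt87 were each lost without any of 4 libraries. For Krt71 these were controls 2 and 3 and Eed cKO 2 and 3 (edgeR adjusted p up to 0.284), for Krt80 control 2 and each Eed cKO library (up to 0.0783), and for Krt87 controls 1 and 3 and Eed cKO 1 and 2 (up to 0.107). Krt12 was no longer called when control 3 or Eed cKO 3 was left out (up to 0.0762). DESeq2 did not call Krt2 (DESeq2 adjusted p 0.0523), and limma-voom did not call Krt71 or Krt87 (limma adjusted p 0.0943 and 0.0539). By size, the log2 fold change of Krt87 of 5.13 became 6.23 when control 2 was left out and 4.42 when Eed cKO 1 was, that of Krt12 went from 3.54 to 4.50 without control 1, and that of Krt71 from -2.36 to -1.75 without control 3. For Krt2, whose control counts all lie in control 1, it was 5.84 with all libraries, 10.93 with control 1 left out, 5.24 with control 2 left out and 5.16 with Eed cKO 2 left out.

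**Figure D3:**
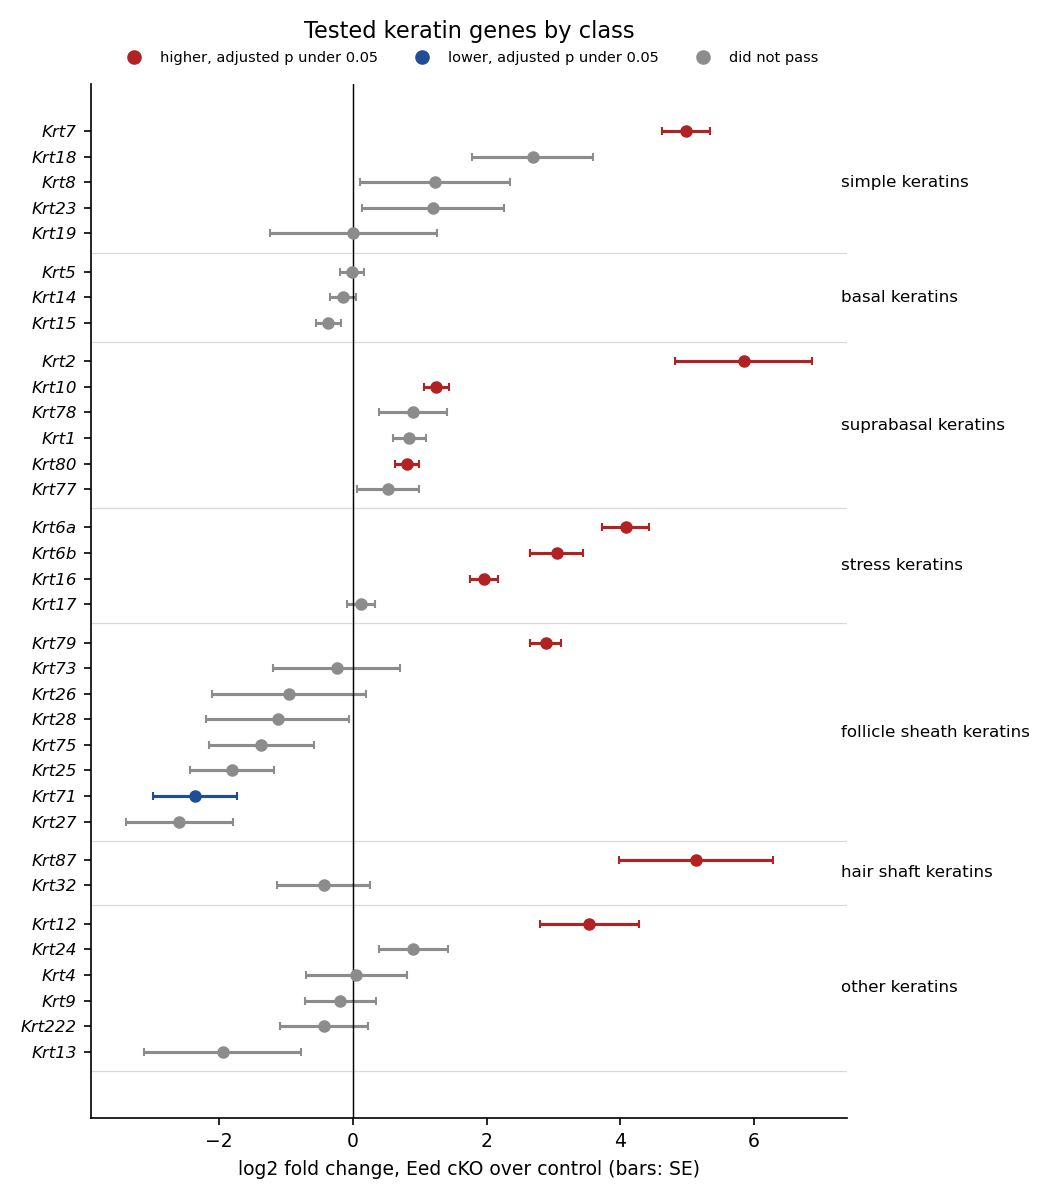
Log2 fold change with its SE for the 34 tested keratin genes, by class, coloured by the edgeR call. Krt7 has the narrowest error bar among the simple keratins, the other 4 members have bars of 0.91 to 1.25, and called genes appear in every class except the basal keratins.

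By position, Krt7 sits near one end of the type II cluster and Krt8 with Krt18 at the other, 586 and 617 kb away. The counted protein-coding genes next to Krt7 are Krt80, 63.6 kb before it, and Krt87, 20.0 kb after it (between the genes' lower ends, here and below), and both rose. Krt80, a keratin of differentiating layers, went from 54.5 ± 8.90 to 95.4 ± 6.23 CPM (edgeR adjusted p 0.0198 at a log2 fold change of 0.81). Beyond Krt87, the hair keratins Krt81, Krt86, Krt83, Krt84 and Krt82 had too few counts to test. Next to Krt8 and Krt18 lie Krt79 and Krt78 on the keratin side, of which Krt79 rose, and the translation factor gene Eif4b outside, at 587 ± 128 and 581 ± 54.6 CPM. Krt20 and Krt23 are neighbours on chromosome 11, 49.6 kb apart, with Krt12 next to Krt20. Krt19 lies between Krt15, at 3058 ± 339 and 2373 ± 534 CPM, and Krt9, neither of which passed.

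**Figure D4:**
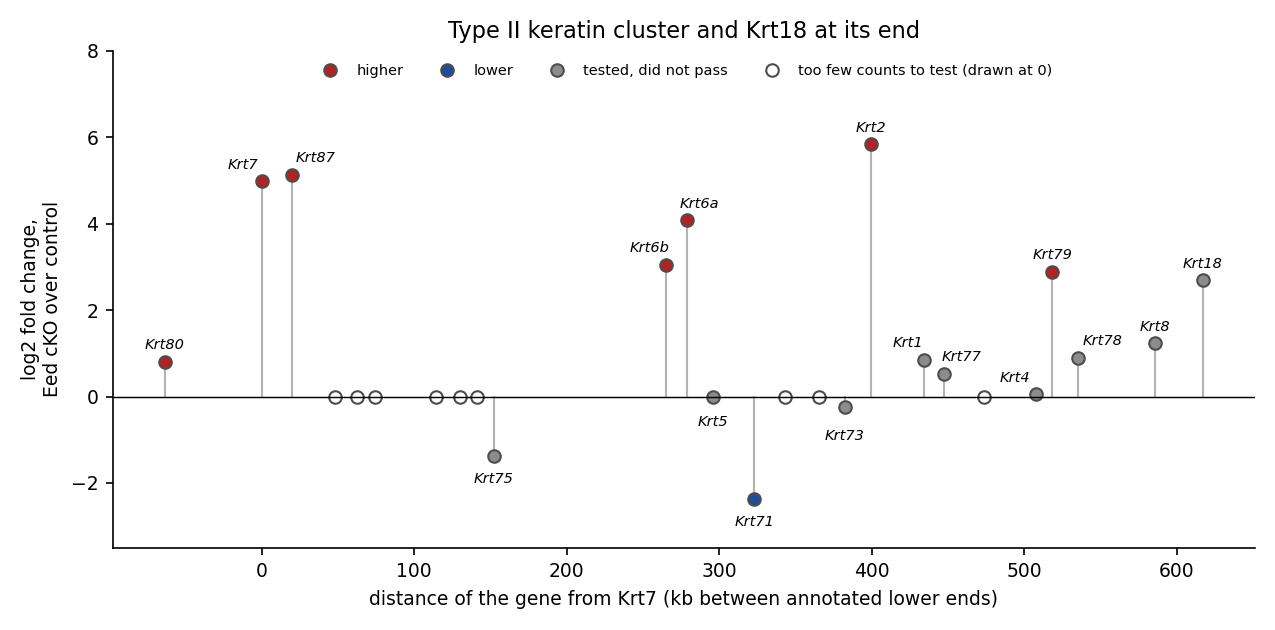
Log2 fold change of the keratin genes of the chromosome 15 cluster against their distance from Krt7 in kb (red higher, blue lower, grey not passed, open circles too few counts and drawn at 0). Called and uncalled genes are interspersed along the cluster, with Krt7 and Krt87 side by side at log2 fold changes of 4.98 and 5.13.

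Merkel cell genes were read beside Krt8, Krt18 and Krt20. Of 19 Merkel cell markers other than keratins, 10 were tested, of which edgeR called 4 higher and 0 lower, 6 did not pass, and 1 (Scg2) had no count in any library. DESeq2 called 5 higher and limma-voom 3, and 4 were higher at an unadjusted edgeR p under 0.05, with 0 lower in each case. Their summed level was 18.8 to 36.7 CPM in control and 63.1 to 96.7 CPM in Eed cKO. The adhesion gene Ncam1, which is not restricted to Merkel cells, was the largest part in control 2 and in each Eed cKO library, and the touch channel gene Piezo2 was the largest part in controls 1 and 3. Piezo2 was at 8.60 ± 1.67 CPM in control and 9.37 ± 1.13 CPM in Eed cKO and did not pass (edgeR adjusted p 0.920). Ncam1 had 13 ± 9.10 CPM in control and 49.4 ± 11.8 CPM in Eed cKO (edgeR adjusted p 0.00883). Its log2 fold change was 1.92 with all libraries and 2.68 when control 2 was left out. Atoh1, the determinant of Merkel cell fate, had 0 counts in all 3 control libraries and 5, 13 and 22 in Eed cKO libraries 1, 2 and 3. The lineage factor Sox2 had 0 counts in control and 185, 22 and 31 in Eed cKO, and Isl1 had 0 in control and 135, 73 and 26 in Eed cKO. Sox2 and Isl1 passed (edgeR adjusted p 0.00452 and 0.00202) and are among the 4 called higher. With 0 counts in every control, both entered the test only through their Eed cKO counts, so their direction was fixed beforehand. The fitted log2 fold change of Sox2, which depends on the prior count since every control is at 0, was 9.32, and 7.95 without Eed cKO 1. Rab3b, a synaptic vesicle gene, rose from 0.709 ± 0.123 to 4.54 ± 2.39 CPM (edgeR adjusted p 0.0273), a call that held only without Eed cKO 2 when 1 library was left out (up to 0.160 in the other 5 fits). In limma-voom it was not called (limma adjusted p 0.105).

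Control 2, the control with the highest Krt8 and Krt18, was the highest control for 9 of the 19 Merkel cell markers. It was the lowest for 3, with 1 between and 6 at 0 in every control. Snap25 is among the 9 at 0.383 CPM, against 0.374 and 0.0391 CPM in controls 1 and 3. Control 2 was also the deepest library, at 29998531 counts. How often it was the highest control over all genes was not counted. Control 2 had 12 counts of Pou4f3, 10 of Gfi1 and 26 of Rab3c, each at 0 in controls 1 and 3. The secretory granule gene Chga had 15 counts in control 2 against 1 in each other control, and the vesicle gene Syp 47 against 12 and 2. The markers lowest in control 2 were Insm1, with 3, 0 and 4 counts in controls 1 to 3, the granule gene Chgb, with 21, 15 and 25, and Piezo2, at 8.30, 7.09 and 10.4 CPM. Among Eed cKO libraries the order differed by gene: Sox2 and Isl1 were highest in library 1, Krt20 and Syp in library 2, and Krt18, Atoh1 and Rab3c in library 3. The part of Merkel cells in the levels of Krt8, Krt18 and Krt20 was not tested.

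**Figure D5:**
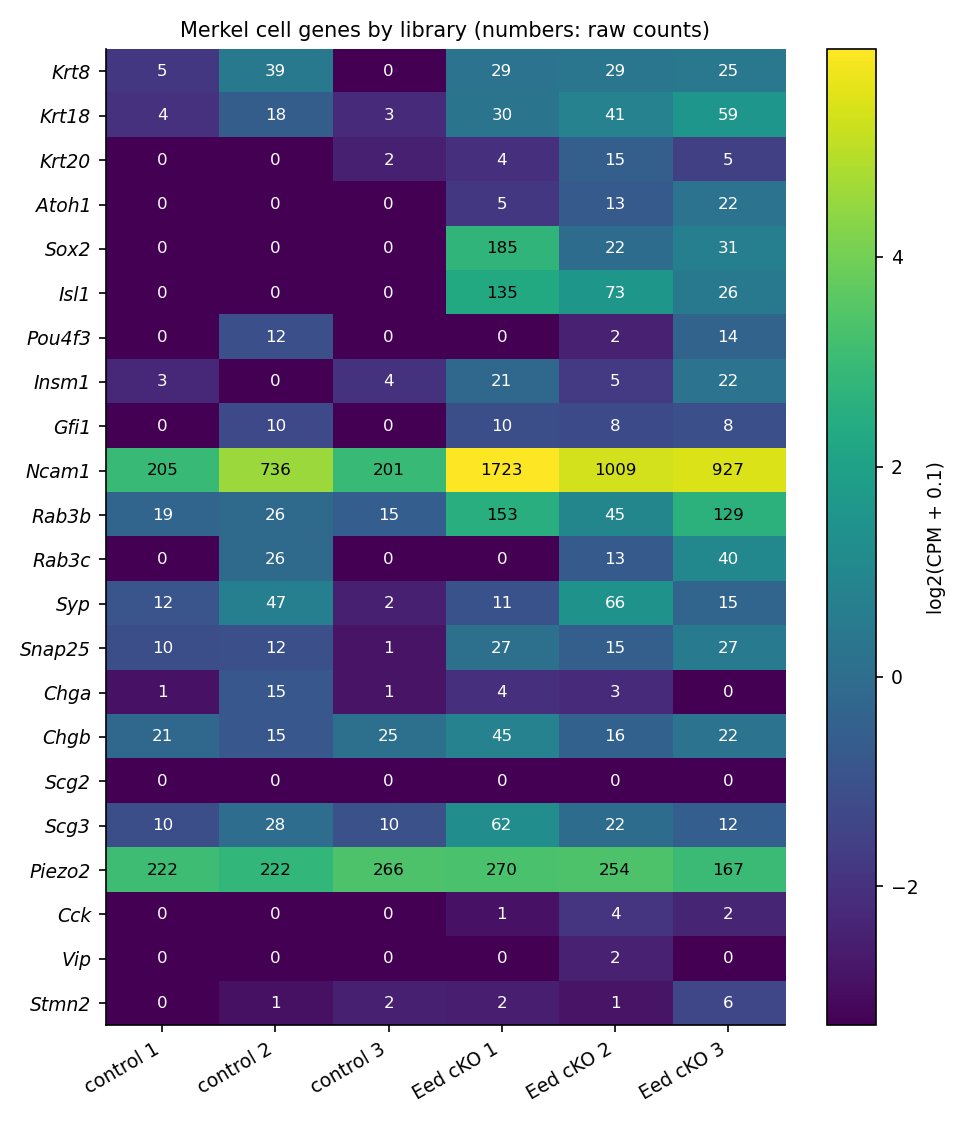
Merkel cell keratins and the 19 Merkel cell markers in the 6 libraries, coloured by log2(CPM + 0.1) with raw counts printed in each cell. Atoh1, Sox2 and Isl1 are at 0 in every control and counted in every Eed cKO library, while among controls Pou4f3, Gfi1, Rab3c and Chga are highest in control 2, and Insm1, Chgb and Piezo2 are lowest there.

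Other genes of simple epithelia were read beside Krt7. Of 15 tested, edgeR called 4 higher (Ehf, Prom1, Epcam and Cldn4) and 0 lower, and 11 did not pass, with a median log2 fold change of 0.72. DESeq2 called 4 higher and limma-voom 3, without Cldn4 (limma adjusted p 0.0501), and 5 were higher at an unadjusted edgeR p under 0.05, with 0 lower in each case. The epithelial Ets factor Ehf went from 1.6 ± 0.489 to 8.01 ± 0.864 CPM (edgeR adjusted p 0.00669 at a log2 fold change of 2.31) and stayed called whichever 1 library was left out. The stem and luminal cell antigen Prom1 went from 5.64 ± 1.85 to 14.1 ± 1.16 CPM, the claudin gene Cldn4 from 2.97 ± 1.80 to 11.6 ± 4.56 CPM and Epcam, used for the sort, from 82.1 ± 20.4 to 139.7 ± 17.4 CPM. The call of Prom1 held in 1 of 6 fits that leave out a library, that without control 1 (edgeR adjusted p up to 0.133 in the others). Cldn4 and Epcam were called in 2 of 6 such fits, which left out control 2 or Eed cKO 1. In the other 4 fits the edgeR adjusted p reached 0.200 for Cldn4 and 0.171 for Epcam.

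Of 16 genes whose proteins bind keratins or tie them to junctions, all tested, 2 rose, 0 fell by edgeR (1 at an unadjusted p under 0.05, 0 by DESeq2 and 0 by limma-voom) and 14 did not pass. The desmosomal plaque gene Pkp2, the plakophilin of simple epithelia and heart, rose from 0.846 ± 0.739 to 7.60 ± 1.41 CPM (edgeR adjusted p 0.00756). Its log2 fold change was 3.15, and 4.17 with control 2 left out. Sfn, encoding the 14-3-3 protein of stratified epithelia, had 117 ± 1.80 and 199 ± 34.5 CPM (edgeR adjusted p 0.0185), and was not called when control 2 or 3 or Eed cKO 1 or 2 was left out (up to 0.0966). Of 7 tested intermediate filament genes that are not keratins, 0 rose by edgeR (3 at an unadjusted p under 0.05, 3 by DESeq2 and 1 by limma-voom) and 1 fell, Synm, from 41.1 ± 9.05 to 19.2 ± 8.01 CPM (edgeR adjusted p 0.0418). Synm was not called when control 1 or 2 or Eed cKO 1 or 2 was left out (up to 0.197).

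Markers of other cells that the sort could hold were read beside Krt7. Periderm markers summed to 93.0 to 119 CPM in control and 179 to 254 CPM in Eed cKO, and 1 of 4 tested rose, the barrier factor Grhl3, which was not called with Eed cKO 1 or 3 left out (edgeR adjusted p up to 0.0674). Hair follicle markers summed to 762 to 839 and 780 to 978 CPM, and 2 of 11 rose (Hoxc13 and Tbx1, the latter not called with any 1 library left out, edgeR adjusted p up to 0.232, or by limma-voom, 0.0714). Gland markers summed to 12.1 to 20.5 and 22.7 to 50.8 CPM with 1 of 3 tested called higher (Scd3, not called with any 1 library left out, adjusted p reaching 0.211, or by limma-voom, 0.0748), and 2 gland markers, Foxi1 and Aqp5, had no count in any library. Fibroblast markers summed to 1908 to 2683 and 1886 to 2077 CPM, with 1 higher (Fn1) and 1 lower (Postn) of 8. Postn was the largest part of that sum, at 1645 ± 270 CPM in control and 866 ± 57.7 CPM in Eed cKO. Fn1 was at 196 ± 26.2 and 496 ± 76.6 CPM. By edgeR 0 of 6 tested melanocyte, 0 of 6 endothelial and 0 of 5 immune markers passed, at sums of 9.26 to 27.3 and 12.6 to 22.6 CPM, 4.98 to 36.0 and 7.10 to 34.6 CPM, and 107 to 390 and 44.6 to 294 CPM. At an unadjusted p under 0.05 there were 2 melanocyte, 0 endothelial and 1 immune markers, and DESeq2 and limma-voom called 0 in each list. Periderm and gland sums were higher in every Eed cKO library than in any control. Most of the gland sum was Foxc1, at 14.1 ± 3.52 and 29.5 ± 15.8 CPM (edgeR adjusted p 0.103). Awat2, a sebaceous gene, was at 2.75 ± 1.55 and 1.39 ± 0.892 CPM, and Scd3 at 0.0710 ± 0.0624 and 1.56 ± 0.748 CPM. Scd3 and Tbx1 had at most 3 counts in any control and entered the test through their Eed cKO counts, so their direction was fixed beforehand. Most of the periderm sum was Grhl3 and Arhgap29. Arhgap29 in Eed cKO 1, at 57.4 CPM, lay within the controls, and in Eed cKO 2 and 3, at 105.8 and 154.6 CPM, above them. The part of these cells in the Krt7 result was not tested.

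The genes most like each member over the 6 libraries were found by Pearson's r of log2 CPM among 12674 genes, as a description. For Krt7 they were the cell cycle inhibitor gene Cdkn2b (r = 0.998), the homeobox gene Emx2 (r = 0.997) and Tbc1d1 (r = 0.996), which encodes a Rab GTPase-activating protein. Cdkn2b went from 0.569 ± 0.268 to 6.71 ± 1.12 CPM, Emx2 from 0.147 ± 0.122 to 8.70 ± 1.19 CPM and Tbc1d1 from 41.2 ± 2.38 to 68.1 ± 2.53 CPM. All 3 were called higher, though Tbc1d1 in no fit with 1 library left out (edgeR adjusted p up to 0.133). Emx2 went from a log2 fold change of 5.80 to 6.75 without control 2. It was low in control and entered the test through its Eed cKO counts, so its direction was fixed beforehand. Since Krt7 separates the groups, genes chosen for likeness to it separate them too, so these calls are not independent of that choice. The genes most like Krt18 were Eml5 (r = 0.997), Sptlc3 (r = 0.994) and Wnt16 (r = 0.993). Those most like Krt8 were Gpr4, Sft2d3 and Zfp566 (r = 0.984, 0.981 and 0.979). For Krt23 they were Zfp862-ps, Wdr55 and Gprasp2 (r = 0.995, 0.991 and 0.985), and for Krt19 Mid1, Bub3 and Rpn2 (r = 0.986, 0.985 and 0.985). Between members, r was 0.916 for Krt7 with Krt18, 0.856 for Krt8 with Krt18 and 0.741 for Krt19 with Krt23, but 0.157 for Krt7 with Krt19. Each r is over 6 libraries that fall into 2 groups and share depth and scaling.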

How the data were processed

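The authors deposited unnormalised counts of reads for each gene symbol, as whole numbers, with a separate file for every library. Per the labels' protocols, the sorted cells' RNA was first amplified as cDNA and then read from one end. Tools listed in the submitters' processing notes are HTSeq 0.6.1, TopHat2 2.0.13, DESeq2 1.6.3 and Cufflinks 2.2.1, without their roles, and the genome build listed is mm10. The gene annotation and strand setting behind the counts were not stated.

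The test was that of edgeR 4.0.16 in R 4.3.3 (filterByExpr, TMM, quasi-likelihood F-test, Benjamini-Hochberg over all genes tested, threshold 0.05). The filter kept 14700 of 24453 symbols. CPM values are TMM-normalised, fold changes compare Eed cKO with control on the log2 scale, and the SE is the log2 fold change over the root of its F statistic. The scripts were tested on simulated data. Alternatives were RLE and upper-quartile scaling, other filters, DESeq2 1.42.0, limma-voom (limma 3.58.1), leaving out each library and a replicate block. Leaving out Rn45s was added after seeing the data. The members and gene lists were chosen with earlier results of these data known. Named genes were the members, called keratins, up to 4 called genes per list by p-value, and the 3 genes most like each member (at least 1 CPM, prior count 2, predicted and small RNA genes left out). The Krt8 to Krt18 ratio was planned without a pseudocount, so control 3, with no Krt8 count, gave no value. Gene positions come from GENCODE M21 (GRCm38, the same assembly as mm10), and promoters from RefSeq (5 of 6 members matched). Figures used Python 3.11.15 and matplotlib 3.10.9.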

Additional observations from a re-analysis of the deposited data

How the results depend on the processing

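Krt7 was called higher in all 14 alternative fits, with log2 fold changes of 4.71 to 5.61. DESeq2 called Krt18 (log2 fold change 2.72, adjusted p 0.0387), which made 2 members higher rather than 1. The other alternatives left Krt18 uncalled, and none called Krt8, Krt19, Krt23 or Krt20. With 1 library left out, Krt19 ranged from -1.84 to 0.71, Krt8 from 0.66 to 3.55, Krt23 from 0.62 to 2.64 and Krt18 from 2.25 to 3.77. The number of other keratins called lower, 1 with all libraries, was 0 with upper-quartile scaling, with at least 1 CPM in 3 libraries and in limma-voom, 3 in DESeq2, and 0 to 1 with 1 library left out. Among genes most like Krt19, Mid1 ranged from -0.40 to 0.19, Bub3 from -0.22 to 0.072 and Rpn2 from -0.14 to 0.045 in such fits, so their sign is not fixed. The cause of these changes was not tested.

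Over all genes, 499 were higher and 120 lower. These counts were 737 and 257 without a low-count filter, 814 and 273 in DESeq2, and 302 to 456 and 35 to 118 with 1 library left out. Replicate numbers were not taken as pairs, since they are not stated to pair animals. Deviations of libraries with the same number correlated at 0.23, 0.108 and -0.001 for numbers 1, 2 and 3. Those of libraries with different numbers correlated at -0.185 to 0.099, so the values do not settle whether the numbers pair. Adding the replicate block put Krt7 at 5.08 on the log2 scale (edgeR adjusted p 2.37e-10), changed no member's call, and gave 675 higher and 269 lower genes. Depth limits Krt8, Krt18, Krt19, Krt20 and Krt23, which had at most 65 counts in any library. The fit without control 3 gave no value for Krt20, since the other controls have no count of it, and Krt19 was not tested with at least 1 CPM in 3 libraries. The Krt8 to Krt18 log2 ratio differed by -1.31 between the groups, by -1.71 to -0.92 with 1 library left out and by -0.62 with 0.5 CPM added.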
